A study of Mus musculus with 6 samples.

Results

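Reg1, Reg3a, Reg3b and Reg3g, secreted lectins of the Reg family, were described together with Dmbt1, Pigr and Lypd8 as genes of mucosal defence in epithelial cells from crypts of the mouse small intestine. The 7 genes were listed by name out of 23565 genes in the count table. They were chosen by a rule that used these libraries, naming Dmbt1 as the most abundant gene of each. Their levels and the differences between groups are therefore given as descriptions, with no test. RNA was sequenced from 3 libraries of each of 2 groups. The Hopx-CreER group was tdTomato-positive cells of HopXCreER::Rosa26LSL-tdTomato mice, and the Lgr5-CreER group was cells positive for both eGFP and tdTomato from Lgr5eGFP-IRES-CreER::Rosa26LSL-tdTomato mice. Both genotypes carried the Rosa26 reporter, which makes the red protein tdTomato after Cre has acted, and both received 1 mg of tamoxifen, which activates CreER, with crypts harvested 16 h later. The series description gives 3 mice for each genotype. Cre was driven from the Hopx locus in one group and from the Lgr5 locus in the other, and the cells of the second were also gated on the eGFP of the Lgr5 allele. Genotype and sorting gate thus differed together and cannot be told apart. The age of the mice is unstated.

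Reg proteins are small C-type lectins that epithelial cells secrete. Reg3g kills Gram-positive bacteria by binding their peptidoglycan and helps to keep bacteria away from the small-intestinal surface, and Reg3b binds mainly Gram-negative bacteria. Both are known to rise on microbial colonisation and on signalling by the cytokine IL-22 through the transcription factor STAT3. Reg1 is a related lectin, first known from regenerating pancreatic islets, and human REG3A forms pores in bacterial membranes. Dmbt1 encodes a large secreted scavenger receptor that binds bacteria and viruses. Pigr encodes the polymeric immunoglobulin receptor, which carries IgA across the epithelium to the lumen. Lypd8 encodes a GPI-anchored protein of the Ly6 and uPAR domain family that binds bacterial flagella and was described mainly in colonic epithelium.

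The 4 Reg genes lie in one cluster of 98216 bases on chromosome 6 (GRCm38, 78370657 to 78468872). Reg3b (78370657 to 78373466), Reg3a (78380709 to 78383827) and Reg1 (78422711 to 78428667) are on the plus strand, and Reg3g (78466269 to 78468872) is on the minus strand. Dmbt1 lies on chromosome 7 (131032053 to 131121630), Pigr on chromosome 1 (130826684 to 130852249) and Lypd8 on chromosome 11 (58379043 to 58390728), all on the plus strand. RefSeq promoters (GRCm38.p6), taken as the 250 bases before the RefSeq transcription start, were matched for 6 of the 7 genes. That start can differ from the end of the gene span given above. The Reg1 window shown lies inside the span of Reg1, and most of the Reg3b window lies inside that of Reg3b. The promoters of Reg3b (chr6:78370635-78370884, plus strand) and Reg3g (chr6:78468875-78469124, minus strand) are shown because these lectins were the abundant Reg transcripts and lie at opposite ends of the cluster. That of Reg1 (chr6:78425733-78425982, plus strand) is shown beside them as the less abundant relative, and that of Pigr (chr1:130826434-130826683, plus strand) as a gene outside the cluster. Capitals mark TATAAA on the sense strand and, on either strand, the STAT site TTCNNNGAA and the E-box CACGTG.
Reg3b: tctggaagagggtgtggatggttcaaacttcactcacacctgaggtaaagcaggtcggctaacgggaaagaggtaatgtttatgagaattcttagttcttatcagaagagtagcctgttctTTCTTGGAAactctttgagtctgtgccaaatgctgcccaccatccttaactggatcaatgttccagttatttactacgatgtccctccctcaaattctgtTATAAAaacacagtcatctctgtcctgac
Reg3g: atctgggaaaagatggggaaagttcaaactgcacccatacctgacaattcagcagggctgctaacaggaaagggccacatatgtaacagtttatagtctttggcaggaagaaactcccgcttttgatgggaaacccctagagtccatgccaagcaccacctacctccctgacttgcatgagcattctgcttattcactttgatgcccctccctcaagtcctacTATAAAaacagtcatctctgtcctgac
Reg1: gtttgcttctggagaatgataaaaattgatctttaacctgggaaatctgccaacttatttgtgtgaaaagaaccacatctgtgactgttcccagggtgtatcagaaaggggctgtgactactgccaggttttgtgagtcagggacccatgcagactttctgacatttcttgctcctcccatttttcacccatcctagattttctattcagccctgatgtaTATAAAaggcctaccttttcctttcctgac
Pigr: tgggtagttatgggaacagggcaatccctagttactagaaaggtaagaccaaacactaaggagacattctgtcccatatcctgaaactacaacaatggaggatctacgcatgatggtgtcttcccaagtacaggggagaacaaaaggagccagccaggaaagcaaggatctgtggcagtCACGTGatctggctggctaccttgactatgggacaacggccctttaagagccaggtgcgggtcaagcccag

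The Reg3b and Reg3g promoters were identical at 173 of 247 aligned bases (70.04%), with the last 20 bases before the start shared. TATAAA lay 29 to 24 bases before the Reg3b start, 27 to 22 before the Reg3g start and 30 to 25 before the Reg1 start. TTCNNNGAA was found in Reg3b alone among the 6 genes, at 129 to 121 bases before the start, and CACGTG in Pigr alone, at 71 to 66. Over 32851 RefSeq promoters of the same length, 7.592% held TATAAA, 7.02% TTCNNNGAA and 6.021% CACGTG. None of these motifs, nor an interferon-type element of GAAA, any 2 bases and GAAA on either strand (2.977% of promoters), was found in the windows of Reg3a and Lypd8. The motifs do not overlap in the sequences shown, and a match is a stretch of letters, not a measured binding site.

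Library totals ran from 10839306 to 14570555 counts. Levels are in CPM, counts relative to the library size as scaled by the TMM method, and 1 count was worth 0.067 to 0.093 CPM. Libraries are numbered by column order, so the numbers are only names. The epithelial markers Epcam (2061.8 to 2420.4 CPM) and Vil1 (499 to 743 CPM) were present in every library. The sums of 12 leukocyte and plasma cell markers were 2.18 to 5.496 CPM in Hopx-CreER cells and 1.94 to 2.48 CPM in Lgr5-CreER cells, with Mzb1 at 0. For stromal and endothelial cells, 6 of 9 markers were in the table, with Col1a1 and Cdh5 at 0, and their sums were 25.6 to 36.8 against 2.21 to 4.61 CPM. Most of these sums was Vim (23.8 to 33.2 against 2.16 to 3.30 CPM), while Pdgfra and Acta2 were at 0 in all Hopx-CreER libraries and Pecam1 at 1.02 to 3.55 CPM. For pancreatic acinar cells, another source of Reg transcripts, 5 of 10 were in the table, with Prss2 at 0, and the sums were 10.2 to 14.7 against 8.21 to 9.57 CPM. Nearly all of this was Cela1 (10.1 to 14.6 against 8.21 to 9.57 CPM), with Cela3b, Ctrb1 and Cel at 0 to 0.169 CPM. Summed markers of 10 genes each were higher in Hopx-CreER cells for Paneth cells (14979 to 32572 against 1666 to 3268 CPM), goblet cells (7147 to 10733 against 2086 to 2785 CPM) and enterocytes (2002 to 4318 against 1057 to 1337 CPM), enteroendocrine cells (2461 to 6876 against 156 to 272 CPM) and tuft cells (239 to 1033 against 117 to 173 CPM), and lower for crypt base columnar stem cells (3322 to 5146 against 10633 to 11101 CPM). Of 10 markers tested, 9 rose for Paneth cells, 8 for goblet cells and 8 for enterocytes, and 10 fell for stem cells (edgeR adjusted p under 0.05). Of 9 tested, 8 rose for enteroendocrine and 8 for tuft cells. Over all tested genes, 9.45% were called higher and 3.3% lower. The stem cell markers include Lgr5 itself, and the Lgr5-CreER cells were gated on the eGFP of that allele, so the gate selected for this gene. Hopx-CreER library 3 stood apart from libraries 1 and 2. It had the highest Paneth (32572 CPM) and enterocyte (4318 CPM) sums of the group and the lowest tuft cell sum (239 CPM, against 1033 and 824 CPM). Its column name alone carries an extra tag of unstated meaning. In the column names, 1 number recurs in Lgr5-CreER libraries 2 and 3, although the series description gives 3 mice for each genotype. Whether these libraries came from separate mice is unclear, so p-values may measure technical spread in part. Fewer cells of a type and less RNA per cell cannot be told apart in these bulk samples.

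Of 12439 genes tested by edgeR's quasi-likelihood test, 9.45% were called higher and 3.3% lower in Hopx-CreER cells at an adjusted p under 0.05. These calls divided as 74.1% higher, against 56.3% with library totals as the scaling and 50.2% with offsets for transcript GC content. All Hopx-CreER libraries lay above all Lgr5-CreER libraries for 18.8% of tested genes and below for 16.2%. All 7 mucosal defence genes passed the filter on low counts. Among them, 2 had Hopx-CreER libraries entirely above (Reg1 and Lypd8), 0 entirely below and 5 overlapped between groups. Their median log2 difference was 0.50, against -0.03 over all tested genes. Because these genes were selected with their values known, nothing is read from these counts.

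**Figure D1:**
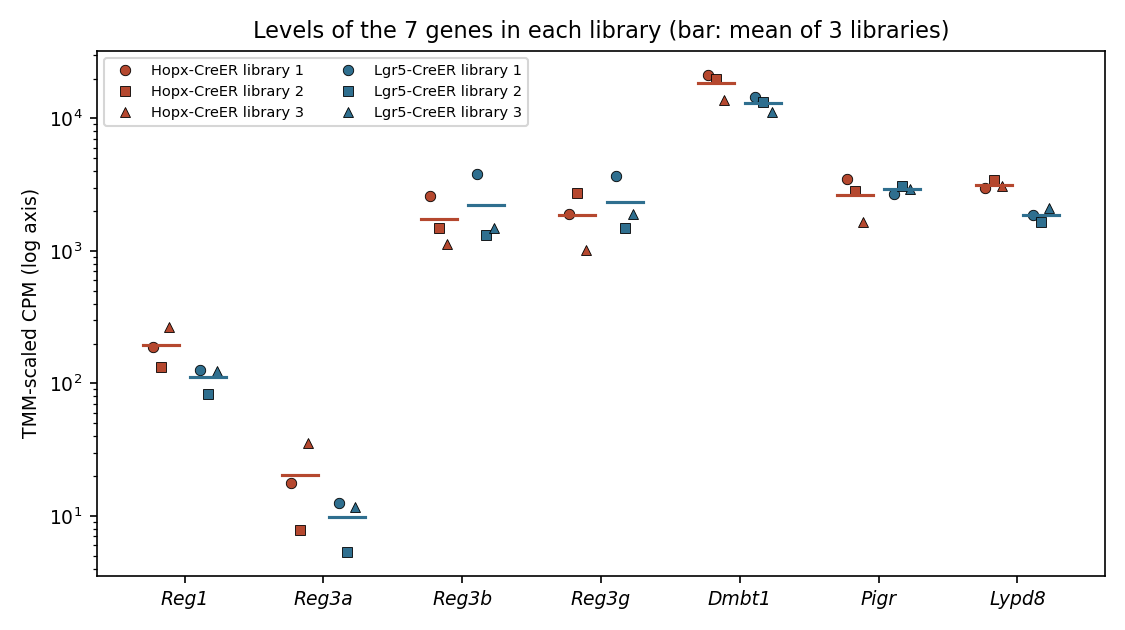
TMM-scaled CPM on a log axis for the 7 genes in the 3 Hopx-CreER (red) and 3 Lgr5-CreER (blue) libraries, with a bar at each group's mean. Dmbt1 lies at 11137 CPM or more in every library, and Reg1 and Lypd8 are the genes whose groups do not overlap.

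Dmbt1 was the transcript with the most counts in each of the 6 libraries. It stood at 21418, 19896 and 13776 CPM in Hopx-CreER libraries 1, 2 and 3 and at 14617, 13300 and 11137 CPM in Lgr5-CreER libraries 1, 2 and 3. Hopx-CreER libraries 1 and 2 lay above all Lgr5-CreER libraries, while Hopx-CreER library 3 fell below Lgr5-CreER library 1. The group means were 18363 ± 4045 and 13018 ± 1757 CPM (SD, n = 3), a log2 difference of 0.50 ± 0.18 (SE). Without Hopx-CreER library 3 the difference was 0.65, with the groups apart.

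As a share of all counts, Dmbt1 took 2.07% (Wilson 95% interval 2.06% to 2.08%), 1.93% (1.92% to 1.94%) and 1.30% (1.29% to 1.30%) of the Hopx-CreER libraries. In the Lgr5-CreER libraries it took 1.499% (1.493% to 1.505%), 1.42% (1.41% to 1.43%) and 1.14% (1.14% to 1.15%). These intervals cover counting error only, since reads amplified by PCR and not tagged per molecule are not independent. The gene with the next most counts was Atp5b, a subunit of ATP synthase, in Hopx-CreER libraries 1 (0.706%) and 2 (0.620%). It was the Paneth cell lysozyme Lyz1 in Hopx-CreER library 3 (0.984%) and the stem cell marker Olfm4 in the Lgr5-CreER libraries (0.768% to 0.801%). Together the 7 genes took 1.97% to 3.15% of a library, and Dmbt1 supplied 54.5% to 65.7% of that sum.

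Lypd8 had the smallest spread of log2 CPM when both groups were pooled, though Pigr varied less among the Lgr5-CreER libraries. Its levels were 2969, 3416 and 3073 CPM across the Hopx-CreER libraries and 1876, 1659 and 2111 CPM across the Lgr5-CreER libraries. The lowest Hopx-CreER library thus lay well above the highest Lgr5-CreER one. The means were 3153 ± 234 and 1882 ± 226 CPM (SD, n = 3), 1.68-fold apart, with a log2 difference of 0.74 ± 0.12 (SE). Hopx-CreER library 3 did not part from its group for this gene, and the difference was 0.75 without it. Over the other scalings, tools and left-out libraries the difference kept between 0.63 and 0.83.

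Pigr differed little between the group means, at 2658 ± 935 CPM in Hopx-CreER cells and 2912 ± 212 CPM in Lgr5-CreER cells (SD, n = 3). The Hopx-CreER libraries held 3492, 2835 and 1647 CPM and the Lgr5-CreER libraries 2685, 3106 and 2945 CPM. Hopx-CreER library 1 was the highest of all 6 and library 3 the lowest, with the Lgr5-CreER libraries close together between them. The log2 difference was -0.13 ± 0.23 (SE), and 0.11 without Hopx-CreER library 3. The Lgr5-CreER libraries spanned a 1.16-fold range and the Hopx-CreER libraries a 2.12-fold range.

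Reg3b and Reg3g, the abundant Reg lectins, varied more within groups than between them. Reg3b stood at 2596, 1484 and 1134 CPM across the Hopx-CreER libraries and at 3837, 1329 and 1488 CPM across the Lgr5-CreER libraries. Lgr5-CreER library 1 was the highest of all 6, and the other Lgr5-CreER libraries lay inside the Hopx-CreER range. The means were 1738 ± 763 and 2218 ± 1405 CPM (SD, n = 3), and the log2 difference was -0.35 ± 0.42 (SE). Without Lgr5-CreER library 1 it turned to 0.30.

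Reg3g stood at 1896, 2728 and 1022 CPM across the Hopx-CreER libraries and at 3675, 1483 and 1892 CPM across the Lgr5-CreER libraries. Lgr5-CreER library 1 was again the highest and Hopx-CreER library 3 the lowest, and the groups overlapped. The means were 1882 ± 853 and 2350 ± 1166 CPM (SD, n = 3), with a log2 difference of -0.32 ± 0.39 (SE) that turned to 0.15 without Lgr5-CreER library 1. The count of Reg3b relative to Reg3g also moved between libraries. It was 1.37, 0.54 and 1.11 in the Hopx-CreER libraries and 1.04, 0.90 and 0.79 in the Lgr5-CreER libraries. Hopx-CreER library 2 was the one in which Reg3g was clearly the larger of the pair.

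Reg1 was the third of the Reg genes in level. Its levels were 188, 133 and 266 CPM across the Hopx-CreER libraries and 126, 83.3 and 123 CPM across the Lgr5-CreER libraries. The groups did not overlap, but Hopx-CreER library 2 was only just above Lgr5-CreER library 1. The means were 196 ± 67.0 and 111 ± 23.9 CPM (SD, n = 3), a log2 difference of 0.82 ± 0.25 (SE). Without Hopx-CreER library 3, its highest library, the difference was 0.52 and the groups still did not overlap.

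Reg3a was the scarcest of the 7 genes. It reached 17.7, 7.78 and 35.5 CPM across the Hopx-CreER libraries, from 235, 92 and 383 counts, and 12.5, 5.36 and 11.6 CPM across the Lgr5-CreER libraries, from 187, 62 and 169 counts. Hopx-CreER library 2 lay below Lgr5-CreER libraries 1 and 3, so the groups overlapped. The means were 20.3 ± 14.1 and 9.83 ± 3.90 CPM (SD, n = 3), with a log2 difference of 1.04 ± 0.51 (SE), which was 0.36 without Hopx-CreER library 3. Reg1 and Reg3a were both highest in that library, where the Paneth and enterocyte marker sums were also highest, while Reg3b, Reg3g and Pigr were lowest there. The part of those cell types in these levels was not tested.

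Pooled over both groups, the spread between libraries was wide for the Reg genes and Pigr and narrow for Lypd8. The SD of log2 CPM within groups was 0.73 for Reg3b, 0.70 for Reg3g, 0.43 for Reg1 and 0.40 for Pigr when pooled over both groups, against a median of 0.14 over the 2432 tested genes that averaged 100 CPM or more. These values stood at percentiles 99.1, 98.9, 95.5 and 95.1 of those genes. The value of Pigr came from the Hopx-CreER libraries (SD 0.56), while its Lgr5-CreER libraries had an SD of 0.11, below the 0.17 of Lypd8 there. Dmbt1 had an SD of 0.28 (percentile 88.6) and Lypd8 one of 0.14 (percentile 51.9). Reg3a, below that abundance, had an SD of 0.91. Reg3b and Reg3g were thus among the genes with the largest spread of those that averaged 100 CPM or more, and Lypd8 was near the median.

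**Figure D2:**
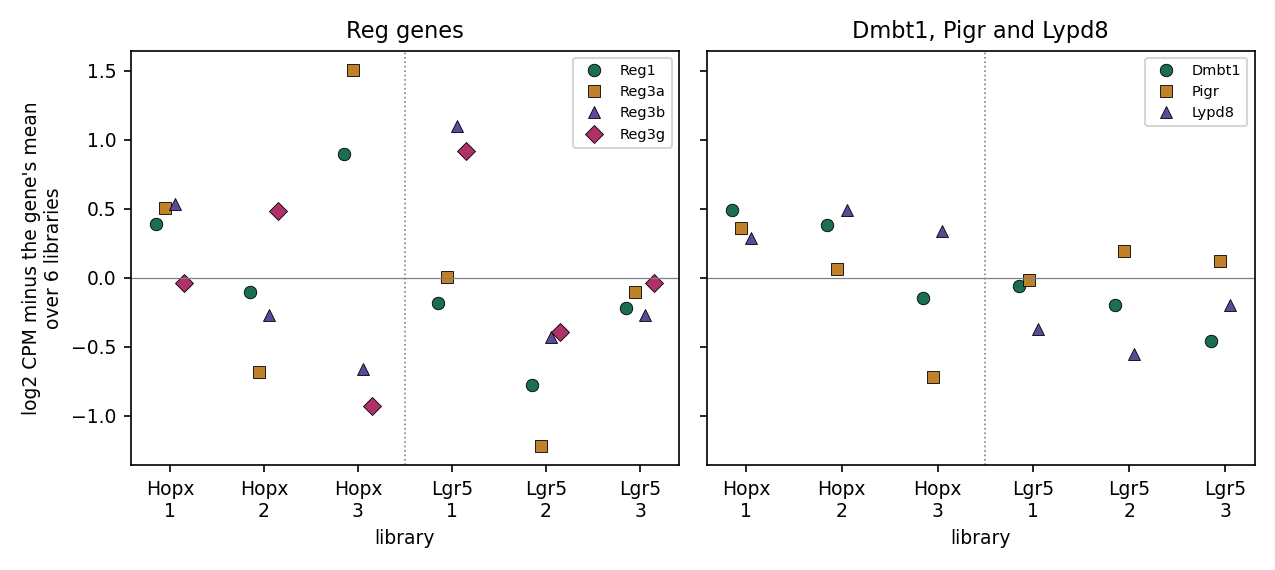
Log2 CPM of each gene minus its own mean over the 6 libraries, for the Reg genes (left) and for Dmbt1, Pigr and Lypd8 (right), with a dotted line between groups. Reg1 and Reg3a are highest in Hopx-CreER library 3, where Reg3b and Reg3g are lowest, and Reg3b and Reg3g are highest in Lgr5-CreER library 1.

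Patterns over the 6 libraries were compared by the root mean square difference of mean-centred log2 CPM, where a smaller value means a closer pattern. Reg3b and Reg3g differed by 0.42, and 0.649% of genes were closer to Reg3b than Reg3g was. Reg1 and Reg3a differed by 0.40, with 14.3% of genes closer to Reg1, and Dmbt1 and Lypd8 by 0.31, with 15.2% of genes closer to Dmbt1. Both distances are smaller than that of Reg3b and Reg3g, but more genes lay closer still to Reg1 and to Dmbt1. These shares are counted from the first gene of each pair alone. Counted from Reg3a, Ovol1 (0.391) was closer than Reg1 (0.401), while the next gene outside the 7, Anpep (0.418), was not. The least alike pair, Reg3a and Reg3g, differed by 1.23. Among 8156 tested genes that averaged 10 CPM or more, the closest to Lypd8 were S100a16, Acot8 and Aadac (0.029 to 0.055), and the closest to Pigr were Cab39l, Tars and Lima1 (0.039 to 0.050). Zzef1, Dab1 and Acacb were closest to Dmbt1 (0.060 to 0.089), and Slc6a8 (0.109) and Crat (0.110) were among those closest to Reg1. The other Reg genes had no gene so close. Gm43305, Smad5 and Spsb1 were nearest to Reg3g (0.192 to 0.261), Tln2, Zfp84 and Gm43305 to Reg3b (0.268 to 0.294), and Ovol1, Anpep and Tkfc to Reg3a (0.391 to 0.426). All these values rest on the same 6 libraries and carry no test.

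Between genes, levels were compared per length, as CPM per kb of the union of annotated exons. On that scale Dmbt1, with 7057 bases of exon, stood at 2602 ± 573 in Hopx-CreER cells and 1845 ± 249 in Lgr5-CreER cells (SD, n = 3). Lypd8, with 1284 bases, stood at 2455 ± 182 and 1466 ± 176 CPM per kb. Dmbt1 ranked 5 to 15 among 23479 genes and Lypd8 6 to 11, so the first place of Dmbt1 by counts did not hold once its length was taken into account. Reg3b stood at 1522 ± 668 and 1942 ± 1230 CPM per kb. By mean it lay below Dmbt1 and Lypd8 in Hopx-CreER cells but above both in Lgr5-CreER cells. The latter order came from Lgr5-CreER library 1, where Reg3b was at 3360 CPM per kb. In Lgr5-CreER libraries 2 and 3, Reg3b (1163 and 1303) lay below Dmbt1 (1885 and 1578) and Lypd8 (1292 and 1644). Reg3g followed at 890 ± 404 and 1112 ± 551, and Pigr at 660 ± 232 and 723 ± 52.7. Reg1 (216 ± 74.1 and 123 ± 26.4 CPM per kb) and Reg3a (24.7 ± 17.04 and 11.9 ± 4.73) came last. Within each group, the libraries of Dmbt1 and Lypd8 overlapped, as did those of Reg3b and Reg3g and of Reg3g and Pigr. Lypd8 lay above Reg3b in the Hopx-CreER libraries (2312 to 2661 against 993 to 2273 CPM per kb) but overlapped it in the Lgr5-CreER libraries. Pigr, Reg1 and Reg3a did not overlap each other in either group. The place of Reg3g depended on the length used. Its exon union of 2114 bases includes a transcript with a retained intron, and with the longest protein-coding transcript of 771 bases its mean over the 6 libraries was 2745 CPM per kb in place of 1001, beside 2526 for Reg3b, 2502 for Dmbt1 and 2065 for Lypd8.

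**Figure D3:**
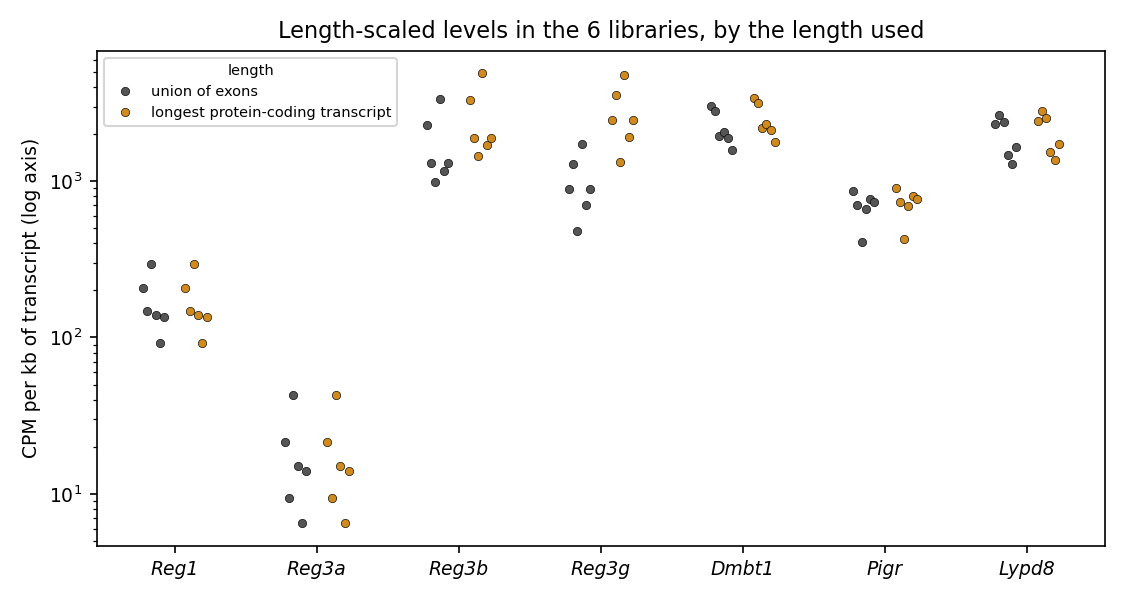
CPM per kb on a log axis for the 7 genes in the 6 libraries, with the union of exons (grey) or the longest protein-coding transcript (orange) as the length. Reg3g moves from a mean of 1001 to 2745 CPM per kb with the second length, while Reg1 and Reg3a keep the same values.

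Reg genes are related in sequence, so counts could in principle pass between them. The longest coding transcript of Reg1 was identical to those of Reg3a, Reg3b and Reg3g at 62.59% to 64.23% of aligned bases. Those of Reg3b and Reg3g, the most alike pair of the Reg genes, were identical at 74.7% of aligned bases, with a longest shared run of 35 bases. Of the 31-base words in each, 5 were shared, which is 0.664% of those in Reg3b and 0.675% of those in Reg3g. Reg3a, Dmbt1 and Lypd8 shared 0 such words with any other gene. Reg1 shared 5.84% of its words with 75 genes, and Pigr 2.80% with 159 genes. Of the neighbours in the cluster, Reg3d, between Reg3b and Reg3a on the opposite strand, had 0 to 6 counts a library, and Reg2, between Reg3a and Reg1, had 0 counts in all 6. The pseudogene Gm5576, upstream of Reg3b, stood at 0.535 to 2.505 CPM. The high counts in the cluster were thus those of Reg3b and Reg3g at its ends, with Reg1 at an intermediate level.

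Other genes of mucosal defence were taken from 7 lists by known role and tested with all genes in the same fit, where positive log2 values are higher in Hopx-CreER cells. Reg4 was the only other listed Reg gene with enough counts to be tested. This lectin of enteroendocrine and goblet cells, which lies outside the cluster, rose most. It stood at 877, 1857 and 2189 CPM across the Hopx-CreER libraries and 36.7, 46.3 and 50.4 CPM across the Lgr5-CreER libraries (log2 difference 5.21 ± 0.34, SE; edgeR adjusted p = 0.00024). The highest Lgr5-CreER library was far below the lowest Hopx-CreER one. The enteroendocrine marker sum was also higher in Hopx-CreER cells (2461, 6876 and 3320 CPM against 156, 272 and 262 CPM). Within that group it peaked in library 2, while Reg4 peaked in library 3. The goblet cell sum was 7147, 10733 and 7258 CPM against 2086, 2684 and 2785 CPM. Paneth, enterocyte and tuft cell sums were higher too, as given above. The part of these cell types in the rise was not tested.

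Secreted antimicrobial and mucus-layer genes showed the most calls. Of 27 listed, 17 were tested, 10 rose and 1 fell, with a median log2 difference of 1.56, beside 9.45% of all genes called higher, 3.3% called lower and a median of -0.03. Muc2, the gel-forming mucin, rose by 2.02 ± 0.19 on the log2 scale (SE; edgeR adjusted p = 0.00055), from 32.1 ± 4.01 to 130 ± 29.4 CPM (SD, n = 3). Clca1, a mucus-processing metalloprotease of goblet cells, rose by 2.90 ± 0.29 (edgeR adjusted p = 0.00065), and Itln1, the lectin intelectin 1, by 3.30 ± 0.38 (edgeR adjusted p = 0.0011). At an unadjusted edgeR p under 0.05, 3 were lower (Lcn2, Nos2 and Duox2, named after their values were seen). DESeq2 and limma-voom called 1 lower each, and the fit with GC offsets called 2 lower. The single gene called lower in the main fit was Duox2, an epithelial oxidase that makes hydrogen peroxide (-0.79 ± 0.21, edgeR adjusted p = 0.035). That call was lost on leaving out Hopx-CreER library 2, or Lgr5-CreER library 1 or 2 (edgeR adjusted p = 0.11 to 0.13), and without Lgr5-CreER library 2 the list had 7 calls among 18 tested genes, in place of 11 among 17. Sprr2a2, S100a8, S100a9 and Slpi had 0 counts in all libraries. Of the 10 genes that rose, 8 also belong to the Paneth or goblet marker lists, whose sums moved the same way, and the part of cell mixture was not tested.

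IL-22 and STAT3 signalling genes mostly did not pass the test. Of 15 tested by edgeR, 1 rose, 0 fell and 14 did not pass, beside 9.45% of all tested genes called higher and 3.3% lower, with a median log2 difference of 0.26. At an unadjusted p under 0.05, 1 was lower (Il6st), and DESeq2 called 1 lower and limma-voom 0. Il18, a cytokine that epithelial cells make, rose by 1.47 ± 0.27 (SE; edgeR adjusted p = 0.0083). Il10rb, a subunit of the IL-22 receptor, stood at 0.41 ± 0.13 (edgeR adjusted p = 0.073), and Il6st, the shared receptor chain of the IL-6 family, at -1.10 ± 0.38 (edgeR adjusted p = 0.090). Of 14 alternatives, 2 called Il10rb higher and 5 called Il6st lower. The latter included the fits without Hopx-CreER library 1 or 3 (edgeR adjusted p = 0.018 and 0.048). The list's calls were 2 on leaving out Hopx-CreER library 1, 4 on leaving out library 3 of that group, and 2 on leaving out Lgr5-CreER library 1.

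Most microbial sensing and NF-kB genes did not pass the test. Of 21 tested, 3 rose, 1 fell and 17 did not pass, beside 9.45% of all tested genes called higher and 3.3% lower, with a median log2 difference of 0.01. At an unadjusted edgeR p under 0.05, 3 were lower (Tlr2, Nod1 and Irak1). DESeq2 called 1 lower, limma-voom 0 and the fit with GC offsets 2. Ticam1, an adaptor of Toll-like receptors 3 and 4, rose by 0.95 ± 0.17 (SE; edgeR adjusted p = 0.0083), Nfkbia, an inhibitor of NF-kB, by 0.67 ± 0.15 (edgeR adjusted p = 0.021) and Sigirr, an inhibitory receptor, by 0.59 ± 0.14 (edgeR adjusted p = 0.028). Nod1, a sensor of bacterial peptidoglycan named after its value was seen, fell by 0.69 on the log2 scale (edgeR adjusted p = 0.049). These calls were not steady to the libraries used. The list had 2 calls without Hopx-CreER library 2. On leaving out Lgr5-CreER library 1, 2 or 3 it had 2, 0 or 1. Nfkbia lost its call without Lgr5-CreER library 1, 2 or 3 (edgeR adjusted p = 0.057 to 0.095), and Sigirr without those or Hopx-CreER library 2 (0.074 to 0.12). With both Lgr5-CreER columns of the same number added up, their adjusted p was 0.073 and 0.098. Among the fits that left out a library, Ticam1 lost its call only without Lgr5-CreER library 2 (edgeR adjusted p = 0.052), while Nod1 kept its call only without Hopx-CreER library 3 (0.042; 0.065 to 0.20 in the other 5 fits).

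Genes that move Pigr and other cargo across the cell gave 3 rises, 0 falls and 12 not passed among 15 tested in the edgeR fit, beside 9.45% and 3.3% over all tested genes, with a median log2 difference of 0.08. The count of lower genes was also 0 at an unadjusted p under 0.05, by DESeq2 and by limma-voom, and was 1 of 16 tested without Hopx-CreER library 1. Rab3b, a GTPase of regulated vesicle transport, rose from 0.661 ± 0.393 to 13.5 ± 5.68 CPM (SD, n = 3; log2 difference 4.31 ± 0.49, SE; edgeR adjusted p = 0.0011). Rab17 (0.62 ± 0.16, edgeR adjusted p = 0.034) and Rab25 (0.42 ± 0.11, edgeR adjusted p = 0.038), GTPases of epithelial transcytosis and recycling, also rose. Without Lgr5-CreER library 1, 2 or 3, Rab3b was the list's only call. Rab17 also lost its call without Hopx-CreER library 1, and Rab25 without Hopx-CreER library 2 or 3. Pigr itself, the cargo receptor, overlapped between groups as given above.

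Galectins and the Reg receptor, listed as partners of Dmbt1 and Reg proteins, gave 2 rises and 0 falls among 4 tested, beside 9.45% and 3.3% over all tested genes, with a median log2 difference of 0.38. At an unadjusted p under 0.05, 1 was lower (Extl3), and DESeq2 and limma-voom called 0 lower, while the fit with GC offsets called 1 lower. Lgals3, a galectin known to bind the rabbit form of Dmbt1, rose from 11.1 ± 5.21 to 75.5 ± 36.1 CPM (SD, n = 3; log2 difference 2.76 ± 0.40, SE; edgeR adjusted p = 0.0029). Lgals4, an abundant intestinal galectin, rose by 0.74 ± 0.14 (edgeR adjusted p = 0.0096), a call that ended without Lgr5-CreER library 2 (edgeR adjusted p = 0.052). The galectin Lgals9, named after its values were seen, differed by 0.012 ± 0.118 (edgeR adjusted p = 0.956). It stood at 2527 ± 76.7 CPM in Hopx-CreER cells and 2506 ± 299 CPM in Lgr5-CreER cells, with groups that overlapped. Extl3, described as a receptor for Reg proteins, stood at -0.36 ± 0.15 (edgeR adjusted p = 0.16). It was called lower with GC offsets (edgeR adjusted p = 0.025). Other genes of the Ly6 and uPAR domain family, relatives of Lypd8, were mostly too low to test. Of 14 listed, 5 were tested, 2 rose and 0 fell, beside the same shares over all genes, with a median of 1.37. The lower count was also 0 at an unadjusted p under 0.05, by DESeq2 and by limma-voom, but 1 with GC offsets. Ly6g6d rose by 2.40 ± 0.37 (edgeR adjusted p = 0.0038), at 7.94 ± 2.63 CPM in Hopx-CreER cells (SD, n = 3), and Cd59a, an inhibitor of complement, by 1.37 ± 0.36 (edgeR adjusted p = 0.037). Ly6a stood at 1.08 ± 0.44 (edgeR adjusted p = 0.15). Cd59a kept its call only without Hopx-CreER library 3, so Ly6g6d was the list's only call in each of the other 5 fits that left out a library. Ly6e, named after its values were seen, had the most counts of the list, at 258 ± 17.6 CPM in Hopx-CreER cells and 319 ± 59.7 CPM in Lgr5-CreER cells (SD, n = 3), with groups that overlapped.

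**Figure D4:**
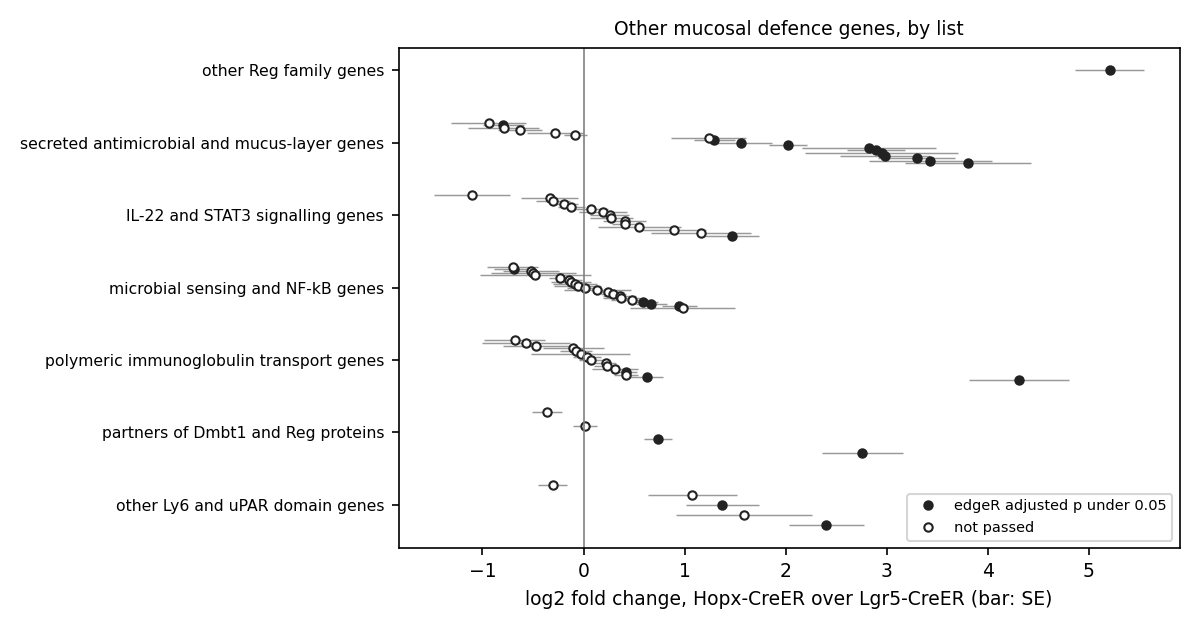
Log2 fold change of Hopx-CreER over Lgr5-CreER cells with its SE for the tested genes of the 7 lists, filled where the edgeR adjusted p is under 0.05. The list of secreted antimicrobial and mucus-layer genes holds 10 filled points to the right of 0 and 1 to the left, while the IL-22 and STAT3 list has a single filled point.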

How the data were processed

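Per the labels' protocols, sorted cells went into TRIzol LS, RNeasy MinElute columns were used for clean-up, and unstranded libraries were made by SMART-Seq v4 and Nextera XT. The deposited table holds raw counts from the authors, 1 whole number per Ensembl mouse gene and library, not normalized. Kallisto, edgeR and GRCh38 are named, per the submitters' processing notes, with no role or version. That build is human while the genes are mouse, and the counting settings were not given in the sources used here.

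Symbols, positions and lengths came from GENCODE M21 (GRCm38), which matched 23479 of 23565 identifiers. Groups were compared with edgeR 4.0.16 in R 4.3.3 (TMM factors, filterByExpr, quasi-likelihood F-test, Benjamini-Hochberg adjustment over 12439 genes, threshold 0.05; 3402 genes had an unadjusted p under 0.05). SEs came from the F statistics. Log2 CPM for the GC offsets used a prior count of 2, and log2 CPM for pattern likeness used no prior count. From each list, the text names the up to 3 tested genes of smallest p that reach 1 CPM on average in the higher group, and for each of the 7 genes the 3 closest in pattern. One gene that this rule picks is not reported here. The procedure was tested on simulated data. The 7 genes, the lists and the tests were chosen with earlier results of these data known. Alternatives were DESeq2's size factors, library totals, no filter, DESeq2 1.42.0, limma-voom (limma 3.58.1), GC offsets (spline with 5 degrees of freedom), leaving out each library, other lengths, and adding up both Lgr5-CreER columns whose names hold the same number. The same without Hopx-CreER library 3, the coding transcript length and the epithelial markers were added after the data were seen. Every column of the table was used.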

Additional observations from a re-analysis of the deposited data

How the results depend on the processing

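The genes called higher numbered 1176 and those called lower 410. Fits without one library gave 606 to 1275 and 117 to 593, with 722 and 160 without Lgr5-CreER library 3. Genes called lower numbered 729 with library totals, 694 with DESeq2 and 1037 with GC offsets, and adding up both Lgr5-CreER columns named with the same number gave 659 higher and 131 lower. The share of calls that were higher was 56.269% with library totals, which moved the median of all genes to -0.14735, and 50.168% with GC offsets. Calls in the transport list were 1 with library totals, GC offsets or the summed columns, and calls in the Ly6 and uPAR list 1 with library totals or the summed columns. The IL-22 and STAT3 list had 3 calls with no filter, 4 with DESeq2, 2 with GC offsets and 2 with the summed columns and Hopx-CreER library 3 left out. With the summed columns the secreted list had 7 calls and the sensing list 1, or 2 with Hopx-CreER library 3 also left out. Over fits without one library, calls ranged from 7 to 11 in the secreted list, 1 to 4 in the IL-22 and STAT3 list, 0 to 4 in the sensing list, 1 to 4 in the transport list, and 1 to 2 in the partner list and in the Ly6 and uPAR list. Lgr5-CreER library 2 gave the 0 in the sensing list. The cause of these changes was not tested. The mean of Reg3g was 2744.6 CPM per kb with the coding transcript length. All 91 alternative differences of the 7 genes moved by less than 1 SD, taken as the within-group SD of log2 CPM between libraries. Leaving out a library can hardly move a group mean by that much, so this bound is no measure of steadiness. Of 13 alternatives, Reg3b and Reg3g changed sign under 1 each and Pigr under 2 (0.10617 and 0.15195), and GC offsets gave Dmbt1 0.38225. Reg4, Muc2, Clca1, Itln1, Il18, Rab3b, Lgals3 and Ly6g6d kept their calls under all 14 alternatives. Depth limits Reg3a, with 62 counts in its lowest library. No paired analysis was possible because the columns carry no replicate numbers that groups share.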
